A study of Mus musculus with 8 samples.

Results

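Axon guidance ligands and receptors were followed through neural differentiation of mouse embryonic stem cells (ESC), each either wild type or a Wdr68 knockout by its label. Members were picked by gene name, and no measured value entered the rule, but earlier results of these data were known when the members were chosen. The rule took every symbol of the semaphorin (Sema), plexin (Plxn), neuropilin (Nrp), Eph receptor (Eph), ephrin (Efn), Robo, Slit, netrin (Ntn), Unc5 and Dcc families. The names matched 70 of the 24306 symbols kept from the tables. They were 20 semaphorins, 10 plexins, 2 neuropilins, 9 EphA and 5 EphB receptors, 5 A-class and 3 B-class ephrins, 4 Robo receptors, 3 Slits, 4 netrins, 4 Unc5 receptors and Dcc. The match Plxna4os1 is, by its name, an antisense transcript of Plxna4 rather than a receptor gene, and it was listed at 0 in all 8 libraries.

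Polyadenylated RNA was sequenced from 4 groups of 2 libraries each: wild-type E14 ESC, Wdr68 knockout E14 ESC, and neural progenitor cells (NPC) made from each of these lines. The tables list the targeted gene as Dcaf7, and the series title links its product to the PRC1-AUTS2 form of the Polycomb machinery. All lines were kept in serum with LIF and inhibitors of MEK and GSK3, on mouse embryonic fibroblast feeders or on gelatin, and any grown on feeders spent a stretch on gelatin before differentiation. For NPC, aggregates of 500 cells hung in drops for 2 days, floated for 2 more, and received retinoic acid for the last 4 days at a concentration that the labels give as 5 mM. How the knockout was made, how many clones it represents and which cultures used feeders are not given in the sources used here. Nothing in the labels says that the duplicates came from separate cultures. The p-values below therefore reflect no more than how far libraries lay apart within groups, and that spread may be technical. The spread of each gene was pooled over the 4 groups and moderated toward a trend over all genes tested.

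Levels are in FPKM (fragment density along the transcript, normalized to library size), given per library or as mean ± SD (n = 2 libraries). The confidence bounds deposited with each FPKM corresponded to 5996677 to 7942644 fragments in a library, and a gene at 1 FPKM rested on a median of 19.0 to 28.3 of them. Changes are differences of log2(FPKM + 1) ± standard error from limma, and a gene passed at an adjusted p under 0.05 over the 13318 genes tested. This scale understates changes of genes near 0. The mean of Dcaf7 was 13.3 ± 1.27 for wild-type ESC, 2.53 ± 0.383 for knockout ESC, 28.4 ± 1.73 for wild-type NPC and 8.68 ± 0.443 for knockout NPC, so some of its RNA remained in both knockout groups. Pou5f1, which marks pluripotent cells, went from 813 ± 36.1 in wild-type ESC to 2.26 ± 0.765 in wild-type NPC.

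Growing axons read 4 classic groups of cues. Netrins attract axons through Dcc and repel them through Unc5 receptors, and Slits repel them through Robo receptors. At the ventral midline of the spinal cord, Robo3 lets commissural axons cross where Slits would otherwise turn them away. Ephrins are membrane-bound ligands of the Eph receptor tyrosine kinases and signal into both cells at a contact. Semaphorins, secreted in class 3 and membrane-bound in classes 4 to 7, act through plexins, and most class 3 ligands also need neuropilins. Many of the same molecules pattern blood vessels: Ephb4 with Efnb2, Plxnd1, Unc5b, Robo4 and the neuropilins are known for roles in endothelium.

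Promoters are shown for Robo3, Epha3 and Sema5b, which had some of the largest falls in knockout NPC, and for Unc5c, a receptor that rose there. Each sequence runs 5′ to 3′ from 250 bases before to 50 bases after the start in RefSeq (GRCm38.p6, a later build than the mm9 of the expression tables), with every CpG in capitals.
Robo3, chr9:37433126-37433425, minus strand: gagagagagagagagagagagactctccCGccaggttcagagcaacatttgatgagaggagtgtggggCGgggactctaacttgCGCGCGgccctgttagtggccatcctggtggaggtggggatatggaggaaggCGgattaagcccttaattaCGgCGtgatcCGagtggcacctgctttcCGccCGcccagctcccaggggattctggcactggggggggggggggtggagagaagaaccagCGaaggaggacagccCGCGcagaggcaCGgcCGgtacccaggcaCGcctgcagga
Epha3, chr16:63864126-63864425, minus strand: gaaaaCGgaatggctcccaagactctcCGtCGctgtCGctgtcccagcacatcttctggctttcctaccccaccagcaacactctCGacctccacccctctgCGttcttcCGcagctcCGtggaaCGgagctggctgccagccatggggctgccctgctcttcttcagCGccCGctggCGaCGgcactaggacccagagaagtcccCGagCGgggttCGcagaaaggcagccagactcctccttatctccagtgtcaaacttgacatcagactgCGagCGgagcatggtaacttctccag
Sema5b, chr16:35541112-35541411, plus strand: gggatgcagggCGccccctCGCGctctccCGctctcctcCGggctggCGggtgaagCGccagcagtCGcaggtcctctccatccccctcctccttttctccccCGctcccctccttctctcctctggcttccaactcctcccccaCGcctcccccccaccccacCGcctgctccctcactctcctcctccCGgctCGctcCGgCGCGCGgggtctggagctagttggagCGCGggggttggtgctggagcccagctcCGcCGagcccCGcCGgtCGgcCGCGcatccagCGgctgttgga
Unc5c, chr3:141465314-141465613, plus strand: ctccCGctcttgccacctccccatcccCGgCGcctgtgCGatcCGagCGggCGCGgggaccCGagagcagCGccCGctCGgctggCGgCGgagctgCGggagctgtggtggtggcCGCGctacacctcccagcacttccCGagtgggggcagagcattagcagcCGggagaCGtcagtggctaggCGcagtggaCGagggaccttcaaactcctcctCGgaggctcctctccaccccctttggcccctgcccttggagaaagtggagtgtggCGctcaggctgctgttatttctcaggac
The 300 bases held 17 CpG in Robo3, 18 in Epha3, 27 in Sema5b and 24 in Unc5c. At least 17 CpG were found in 43 of the 75 promoters of the 59 members that the RefSeq table covers (57.3%) and in 31.4% of all 32851 promoters. The median was 19 CpG in member promoters and 7 in all. A set of 3 short motifs was searched on both strands, none of which contains another. AGGTCA, the core of retinoic acid receptor elements, was in 14.7% of member promoters and 16.3% of all. CAGCTG, an E-box core, was in 16% of member promoters and 16.3% of all. A motif bound by GATA factors, AGATAA, was in 4% (3 of the 75) and 11.2%. The median GC content was 64.3% in member promoters and 52.7% in all, and its part in the share of this AT-rich motif was not tested. Of the 4 promoters shown, Epha3 had a match, to AGATAA. These are letter matches in 1 window per start and say nothing about binding.

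In wild-type ESC 28 of the 70 members had a mean of at least 1 FPKM, and the median member stood at 0.498. Of all 24306 symbols, counted by library rather than by mean, 10942 and 10934 reached 1 FPKM there. The Eph receptors Epha2 (29.6 ± 1.84) and Epha4 (23.3 ± 0.524) led, ahead of Plxna1, Sema4b and Ntn1. In wild-type NPC 58 members reached 1 FPKM and the median was 4.99, while 12209 and 12122 of all symbols did so by library. The leaders there were Efnb2 (36.0 ± 2.87), Robo3 (26.8 ± 0.000919), Plxnb2, Plxna1 and Epha3 (23.8 ± 1.71). In knockout NPC 47 members reached 1 FPKM and the median was 2.76, while 11815 and 11886 of all symbols did so by library. Efnb2 led again, at 44.8 ± 0.0332, followed by Plxnb2, Ephb4, Efna4 and Efnb1, and Robo3 and Epha3 were no longer among the leaders.

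Of the 70 members, 60 passed the filter of at least 1 FPKM in at least 2 libraries and were tested. The other 10 (Epha5, Epha6, Epha8, Ephb1, Ntn5, Plxna4os1, Plxnb3, Sema3g, Sema6b and Unc5d) had group means of at most 1.21 FPKM, in Ephb1. Members near 0 in ESC entered the tests through their NPC libraries, so the counts below describe the tested members and not all 70. Dcc, Epha10, Ntn4, Slit1, Sema5a and Sema7a reached 1 FPKM in the wild-type NPC libraries alone. Outside those libraries, Robo3 and Unc5a reached it in the second knockout NPC library alone. All of these entered through the group where they were high, so their lower calls in knockout NPC are not independent of the filter. At 20 members the listed locus shares bases with another entry of the tables, among them Unc5a with Hk3, Ntn4 with Gm15915 and Gm8580, Epha10 with 1700125G02Rik and Slit3 with Mir218-2. Whether counting used strand is not given in the sources used here, so reads of such pairs may have been exchanged.

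Knockout and wild-type ESC were compared to see whether guidance genes differed before differentiation, and no member passed. None of the 60 was called by limma in either direction, against 0.248% of all genes tested. At an unadjusted p under 0.05, 1 member was higher and 8 were lower, against 12.7% of all genes. The wild-type libraries had 28.3 and 30.9 of Epha2 and the knockout libraries 30.4 and 28.0, with overlapping groups (95% interval of the log2 difference -0.33 to 0.29). Ephb2, a receptor of B-class ephrins, had the largest difference, at 2.71 and 2.38 against 1.42 and 1.49 without overlap (-0.53 ± 0.10, 95% interval -0.77 to -0.28, unadjusted p = 0.00142 by limma), which did not pass (adjusted p = 0.151). Ntn1 stood at 12.2 and 12.6 against 8.87 and 10.1, and Sema5b at 2.35 and 1.95 against 1.39 and 1.44. In both genes the groups did not overlap, but the differences of -0.36 ± 0.17 and -0.38 ± 0.12 did not pass (adjusted p = 0.446 and 0.289).

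On differentiation of wild-type cells, most members rose. Of the 60, 46 were higher in NPC and 8 lower, 90% in all, against 72.6% of all genes tested, of which 41.6% were higher and 31.1% lower. The median change was 1.29 over the members and 0.15 over all genes. The members that fell were Epha2, Epha4, Robo4, Ntn1, Sema4a, Sema4b, Sema4d and Sema4f. In knockout cells 42 members rose and 11 fell, against 41.6% and 28.8% of all genes (70.3% called), with medians of 1.18 and 0.17. The call in both genotypes was higher for 40 members, which is 40 of the 46 that rose in wild type and 40 of the 42 that rose in knockout. The same overlap was not counted over all genes, so it is not read as a trait of the members. In wild type the call of Nrp2 was lost without the first ESC library or either NPC library, that of Sema3e without the first NPC library, and that of Sema4d whichever of the 4 was left out. In knockout Dcc and Sema3e lost their calls without either ESC library or the second NPC library, and Robo3 without either ESC library. Sema3b lost its call there whichever of the 4 was left out, Sema4d in all fits but that without the second ESC library, and Sema7a in all but that without the first. The call of Nrp2 in wild type and that of Dcc in knockout were also lost with median-ratio scaling (adjusted p = 0.0540 and 0.0557).

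In NPC, Robo3, Epha3, Dcc and Sema5b were far lower in knockout than in wild type, and Slit3, Epha7, Unc5b and Unc5c were higher. Of the 60 members, 10 were higher and 20 lower in knockout NPC, 50% in all, against 27.4% of all genes tested (14.7% higher and 12.7% lower). The lower calls include Dcc, Epha10, Ntn4, Slit1, Sema5a and Sema7a, which passed the filter through wild-type NPC alone. The median change was -0.04, close to the 0.05 of all genes, with called members on both sides. Among ligands 1 of 32 was higher and 12 were lower, and among receptors 9 of 28 were higher and 8 lower. Each NPC library was also left out in turn, with all ESC libraries kept. The calls lost in at least 1 such fit were Ephb3 and Robo2 (higher) and Ephb2, Nrp2, Ntn1, Sema4b, Sema4d, Sema4f and Sema4g (lower). The libraries are given beside each gene, except that for Ephb3 only the number of fits is given. Calls of members were also lost with a pseudocount of 0.1 (Epha7, Plxnd1, Robo2, Sema4d and Sema4g), with no filter (Sema4d and Sema4g), with a replicate block (Nrp2, Sema4d, Sema4f and Sema4g), and with only the NPC libraries fitted (Ephb3, Nrp2, Ntn1, Robo2, Sema4b, Sema4d and Sema4g). The plot of knockout effects shows calls in both directions among the plexins, Eph, Unc5 and Robo receptors and the Slits. Calls in the semaphorins, netrins and neuropilins were all lower, and none was made among the ephrins.

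**Figure D1:**
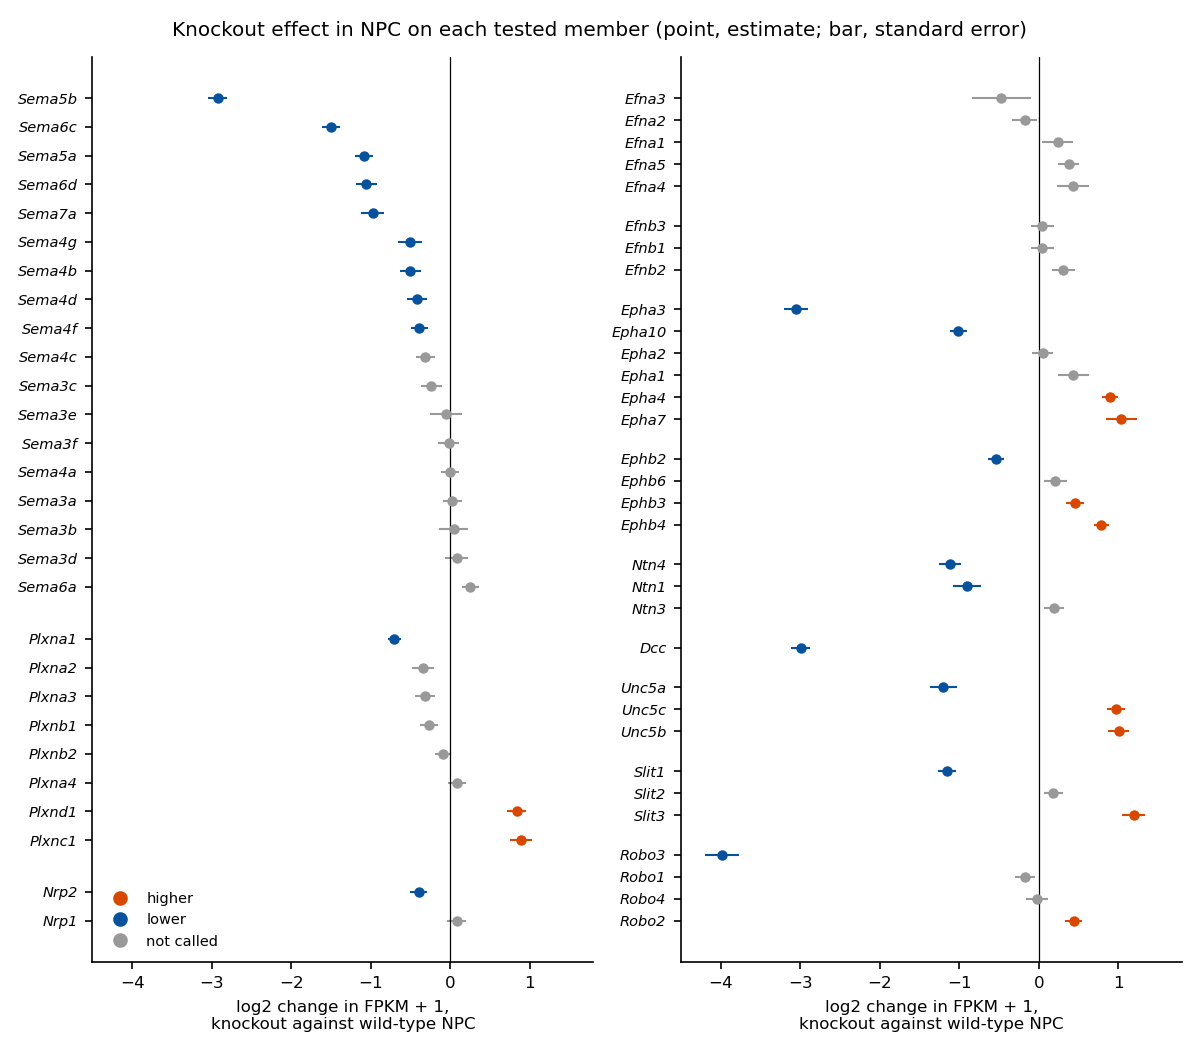
Difference of log2(FPKM + 1) between knockout and wild-type NPC (x axis) for the 60 tested members, grouped by family; points are limma estimates from 2 libraries a group, bars are standard errors, and colour gives the call at an adjusted p under 0.05. Robo3 at -3.99, Epha3 at -3.06, Dcc at -2.99 and Sema5b at -2.93 stand apart on the left, and the rises reach 1.19 for Slit3.

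The NPC libraries also differed in their cell type markers, and these values stand beside every result in NPC below. Of all genes tested, 14.7% were higher and 12.7% lower in knockout NPC, the background of each count in this paragraph. Of 18 neuronal markers, all tested, 17 were lower in knockout NPC and Isl1 was higher. Their summed level was 491.8 to 525.9 FPKM in the wild-type libraries and 39.4 to 45.0 in the knockout ones. Of 14 neural progenitor markers, 12 were tested and 10 were lower (sums 351.6 to 352.9 and 86.6 to 87.0). Tubb3, a neuronal tubulin, went from 165.0 ± 3.70 to 6.13 ± 2.42, Sox2 from 30.2 ± 0.311 to 1.81 ± 0.934, and Pax6 from 14.3 ± 0.0814 to 2.69 ± 0.587, while Olig2 was listed at 0 in both knockout libraries. Of 12 pluripotency markers 3 were higher and 1 lower (sums 17.1 to 22.8 and 20.0 to 24.4). This share of 33.3% called was near the 27.4% of all genes. In the opposite direction, 11 of 13 tested markers of endothelium and blood were higher (sums 100.0 to 129.4 and 877.2 to 1076.4), and Gata1, not tested, was listed at 0 in both wild-type libraries. Most of each of these sums came from the embryonic globins Hbb-y, Hbb-bh1 and Hba-x, so the sums describe blood more than endothelium. The globin means were 26.0, 24.3 and 47.4 FPKM in wild-type NPC and 218, 233 and 478 in knockout NPC. Of 12 tested mesoderm markers, 9 were higher and 1 lower (sums 69.8 to 70.9 and 201.9 to 239.5), with Foxf1 at 4.11 ± 1.41 and 63.6 ± 5.89. Of 7 tested neural crest markers 5 were lower and 1 higher (77.1 to 90.1 and 26.4 to 35.3), and of 9 tested fibroblast markers 5 were lower and 1 higher (143.9 to 151.4 and 131.0 to 143.9), with S100a4 at 0 in knockout. In these bulk libraries, fewer cells of a type and less RNA per cell cannot be told apart, and the part of cell makeup in the changes of the guidance genes was not tested.

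Netrin ligands were the only ligand family whose summed level was lower in NPC than in ESC. The netrin sum was 12.8 ± 0.345 FPKM in wild-type ESC, 9.99 ± 0.880 in knockout ESC, 9.43 ± 0.567 in wild-type NPC and 5.33 ± 0.606 in knockout NPC. Ntn1, the founding midline attractant (chromosome 11, 68022866 to 68200328, mm9), made up 97.0% of it in wild-type ESC. In NPC it was at 5.39 and 5.74 in the wild-type libraries and 1.94 and 3.19 in the knockout ones, without overlap, a change of -0.90 ± 0.17 (adjusted p = 0.00807) that was lost without the second wild-type NPC library. Differentiation lowered it in both genotypes, by -1.03 ± 0.17 and -1.58 ± 0.17. Ntn4, a netrin of basement membranes, was listed at 0 in all 4 ESC libraries. It reached 2.84 and 1.99 in wild-type NPC and only 0.585 and 0.547 in knockout NPC (-1.11 ± 0.14, adjusted p = 0.00141). Ntn3 stood at 1.55 and 1.16 against 1.74 and 1.61 and did not pass (0.19 ± 0.13, adjusted p = 0.325). Ntn5 had at most 0.634 FPKM in any library.

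The netrin receptors divided. Dcc, which mediates attraction (chromosome 18, 71413286 to 72510723), was near 0 in ESC, at 0.0555 and 0.0298 in wild type and 0.0136 and 0.0131 in knockout. Wild-type NPC had 9.46 and 8.69, and knockout NPC 0.182 and 0.350. The groups did not overlap, and the mean was 34.1-fold lower in knockout (log2 change -2.99 ± 0.12, adjusted p = 1.97e-05). The knockout values rested on about 20.8 and 44.0 fragments. Dcc rose by 3.27 ± 0.12 on wild-type differentiation and by 0.32 ± 0.12 in knockout (adjusted p = 0.0451), a call lost when either knockout ESC library or the second knockout NPC library was left out.

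Of the repulsive Unc5 receptors, Unc5a went with Dcc, and Unc5b and Unc5c went the other way. Unc5a (chromosome 13, 55050793 to 55107379) was listed at 0 in every ESC library, at 3.82 and 4.74 in wild-type NPC and at 0.981 and 1.64 in knockout NPC (-1.20 ± 0.17, adjusted p = 0.00213). Unc5b (chromosome 10, 60225343 to 60294329), also known from vessels, was the Unc5 gene of ESC, with 5.21 and 4.32 in wild type and 3.06 and 3.86 in knockout. It was not called on wild-type differentiation, at 5.66 and 5.76 in NPC, and stood at 12.5 and 12.4 in knockout NPC (1.004 ± 0.13, adjusted p = 0.00159). Unc5c (chromosome 3, 141128528 to 141497888), whose promoter is printed above, had at most 0.0117 in an ESC library. It reached 6.03 and 5.24 in wild-type NPC and 11.9 and 11.9 in knockout NPC, 2.12-fold higher (0.97 ± 0.11, adjusted p = 0.00111). None of these groups overlapped in NPC. The Unc5 sum was 15.9 ± 0.141 in wild-type and 25.9 ± 0.465 in knockout NPC, and Unc5d stayed at or below 0.308 in every library.

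**Figure D2:**
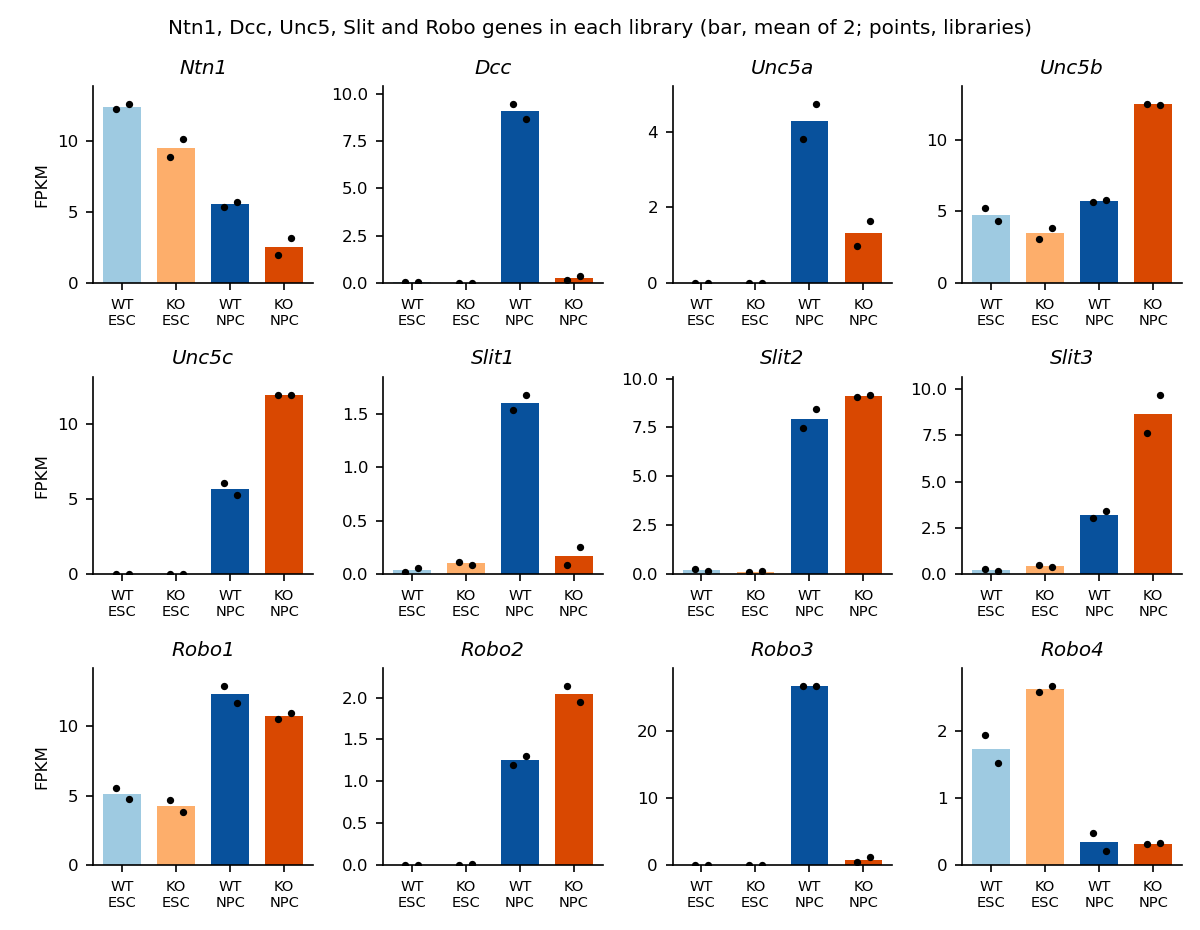
FPKM (y axis, a separate linear scale per gene from 0) of 12 netrin, Slit and receptor genes in wild-type (WT) and knockout (KO) ESC and NPC; bars are means of 2 libraries and points are the libraries. Dcc, Unc5a, Slit1 and Robo3 are high in wild-type NPC alone, whereas Unc5b, Unc5c and Slit3 are highest in knockout NPC.

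The 3 Slits all came up on wild-type differentiation and then responded differently to the knockout. Their sum was 0.460 ± 0.0743 FPKM in wild-type ESC, 12.8 ± 1.04 in wild-type NPC and 18.0 ± 1.64 in knockout NPC. Slit1 (chromosome 19, 41674747 to 41818346), the Slit best known from the nervous system, stood at 1.53 and 1.68 in wild-type NPC and 0.0854 and 0.256 in knockout NPC. This was a change of -1.16 ± 0.12 (adjusted p = 5.27e-04), on 5 and 16 fragments in knockout. Slit2, the highest Slit in NPC, was at 7.45 and 8.42 against 9.08 and 9.16, and the difference did not pass (0.18 ± 0.12, 95% interval -0.09 to 0.46). Slit3 (chromosome 11, 34934958 to 35522009) was at 3.04 and 3.39 against 7.63 and 9.70, 2.70-fold higher in knockout (1.19 ± 0.14, adjusted p = 0.00118). Thus the lowest Slit fell, the highest did not pass, and the third rose. Slit1 did not pass on differentiation of knockout cells (0.09 ± 0.12, adjusted p = 0.522), while Slit2 and Slit3 rose there by 3.17 ± 0.12 and 2.75 ± 0.14.

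Among the Robo receptors, Robo3 fell most, and on the log2(FPKM + 1) scale its fall was the largest of all 60 members. By the ratio of means Sema5b, Dcc and Epha10 fell further. The Epha10 mean went from 1.07 to 0.0242 FPKM, with 1 knockout library listed at 0. Robo3 (chromosome 9, 37223630 to 37240760) had 1 to 3 fragments in each ESC library and 26.8 FPKM in each of the 2 wild-type NPC libraries, on 1501 and 1099 fragments. In knockout NPC it stood at 0.380 and 1.23, on 20 and 67 fragments. The mean was 33.3-fold lower, and the libraries of the 2 genotypes were far apart (-3.99 ± 0.21, adjusted p = 4.06e-05). Robo3 rose by 4.73 ± 0.21 in wild-type differentiation and by 0.75 ± 0.21 in knockout, and the second rise was lost without either knockout ESC library. It made up 65.8% of the Robo sum in wild-type NPC, and the sum went from 40.7 ± 0.980 there to 13.9 ± 0.805 in knockout NPC.

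The other Robo genes kept closer to wild type. Robo1, a Slit receptor, stood at 12.9 and 11.7 in wild-type and 10.5 and 11.0 in knockout NPC (-0.18 ± 0.13, 95% interval -0.48 to 0.12). Robo2 was listed at 0 in both wild-type ESC libraries, and was at 1.20 and 1.30 against 2.14 and 1.95 in NPC (0.44 ± 0.10, adjusted p = 0.0212). Without the first library of either NPC group, or with a pseudocount of 0.1 (adjusted p = 0.127), this call was lost. Robo4, the endothelial Robo and the next gene to Robo3 on chromosome 9 (37209482 to 37221608), fell on differentiation in both genotypes (-1.02 ± 0.14 and -1.46 ± 0.14). It stood at 0.484 and 0.211 in wild-type NPC and 0.308 and 0.332 in knockout NPC, with overlapping groups, beside 11 of 13 endothelium and blood markers that were higher there.

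The leading EphA receptor differed between ESC, wild-type NPC and knockout NPC. The sum was 55.7 ± 2.42 FPKM in wild-type ESC, 55.4 ± 3.57 in knockout ESC, 47.3 ± 0.454 in wild-type NPC and 39.7 ± 3.48 in knockout NPC. In wild-type ESC Epha2 made up 53.2% of it and Epha4 41.9%. In wild-type NPC Epha3 made up 50.3%, and in knockout NPC Epha7 made up 37.9% and Epha4 32.9%. Epha3 (chromosome 16, 63545044 to 63863983), a receptor of A-class ephrins, was listed at 0 in all 4 ESC libraries. It stood at 25.0 and 22.6 in wild-type NPC and at 1.60 and 2.41 in knockout NPC, 11.9-fold lower (-3.06 ± 0.15, adjusted p = 3.46e-05).

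Epha4 and Epha7 were higher in knockout NPC. Epha4 (chromosome 1, 77363760 to 77511663), which binds ephrins of both classes, fell from 23.0 and 23.7 in wild-type ESC to 6.81 and 6.34 in wild-type NPC. In knockout it was at 24.5 and 20.4 in ESC and 12.8 and 13.4 in NPC, so it fell less (NPC difference 0.89 ± 0.10, adjusted p = 9.54e-04). Epha7 was at 6.46 and 7.18 in wild-type and 14.7 and 15.4 in knockout NPC (1.04 ± 0.19, adjusted p = 0.00778), a call lost with a pseudocount of 0.1 (1.13, adjusted p = 0.0807). Epha2 fell in both genotypes, to 4.03 and 4.91 in wild-type and 4.08 and 5.25 in knockout NPC (difference between genotypes 0.05 ± 0.13, 95% interval -0.27 to 0.36). Epha10, which lacks kinase activity, was at 1.01 and 1.122 in wild-type NPC and listed at 0 and 0.0485 in knockout (-1.01 ± 0.11, adjusted p = 6.19e-04). Epha1 did not pass (0.43 ± 0.19, adjusted p = 0.145), except in the fit with a replicate block (adjusted p = 0.0484). Of the untested Epha5, Epha6 and Epha8, Epha5 had the highest level, 1.01 and 0.824 in wild-type and 0.295 and 0.276 in knockout NPC.

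The leading EphB receptor was Ephb2 in wild-type NPC and Ephb4 in knockout NPC. Ephb2 stood at 17.1 and 18.2 in wild-type and 12.1 and 11.5 in knockout NPC (-0.54 ± 0.10, adjusted p = 0.00888), a call lost without the second library of either NPC group. Its ESC difference was of like size (-0.53), and the knockout effects in NPC and ESC differed by -0.01 (95% interval -0.36 to 0.34). Ephb4 (chromosome 5, 137791337 to 137815750), the venous receptor of ephrin-B2, stood at 12.2 and 12.8 against 23.1 and 21.4, 1.78-fold higher (0.79 ± 0.10, adjusted p = 0.00137). Ephb3 was at 5.17 and 4.91 against 7.91 and 6.73 (0.46 ± 0.11, adjusted p = 0.0227), and Ephb6, which also lacks kinase activity, did not pass (0.21 ± 0.15, adjusted p = 0.357). The call of Ephb3 was lost in 3 of the 4 fits that left out an NPC library. Ephb2 made up 45.7% of the EphB sum in wild-type NPC and Ephb4 49.7% in knockout NPC. The sums were 38.7 ± 0.04996 and 44.8 ± 2.31.

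**Figure D3:**
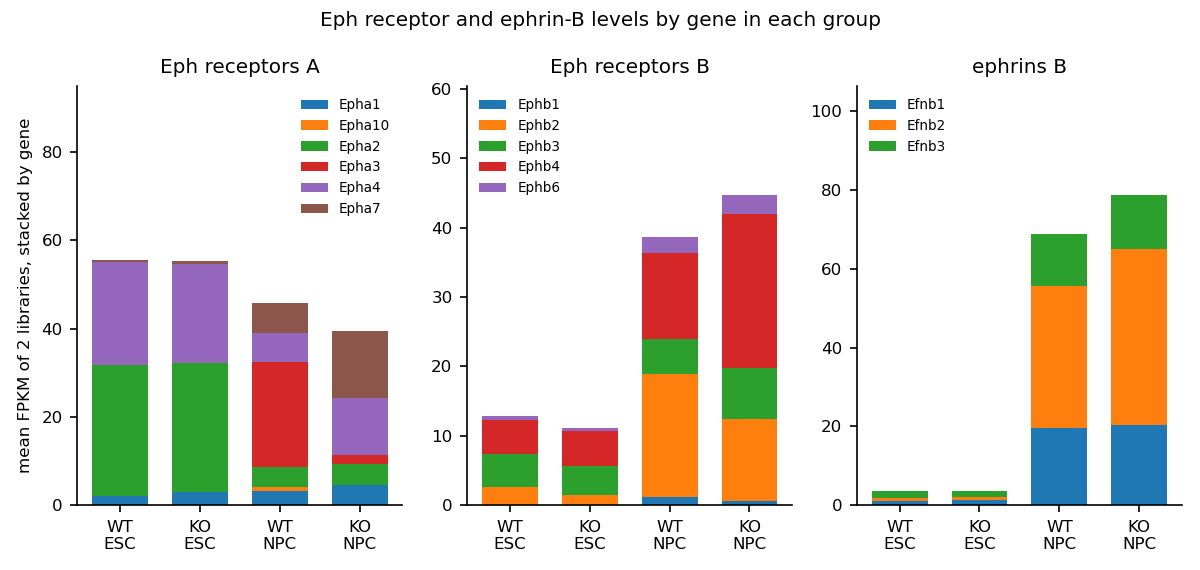
Mean FPKM of 2 libraries, stacked by gene, for EphA receptors, EphB receptors and B-class ephrins in each group (members with a mean under 1 FPKM in every group are left out, and y axes differ). Epha2 and Epha4 fill most of the EphA bars in ESC, Epha3 makes up 50.3% in wild-type NPC and Epha7 with Epha4 most of the bar in knockout NPC, while Efnb2 makes up 52.3% of the ephrin-B bar in wild-type NPC and 56.8% in knockout NPC.

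None of the 8 tested ephrins passed in knockout NPC, against 27.4% of all genes, and whether ephrins and Eph receptors differ in this was not tested. B-class ephrins had the steepest rise with differentiation of any family with more than 1 gene outside the Slits, from a sum of 3.47 ± 0.215 to 68.9 ± 2.21 in wild type and from 3.55 ± 0.641 to 78.8 ± 1.44 in knockout. Efnb2 (chromosome 8, 8617439 to 8660773), the arterial ephrin and a boundary cue of the hindbrain, stood at 38.1 and 34.0 in wild-type and 44.8 and 44.7 in knockout NPC. These groups did not overlap, and the difference did not pass (0.31 ± 0.14, adjusted p = 0.165, 95% interval -0.04 to 0.65). Efnb1 was at 19.5 and 19.7 against 22.3 and 18.4 (interval -0.30 to 0.39), and Efnb3 at 12.9 and 13.6 against 12.7 and 14.7 (interval -0.30 to 0.39). Among A-class ephrins, Efna4 was at 14.4 and 15.3 against 24.6 and 16.95, with a wide spread in knockout (0.44 ± 0.20, adjusted p = 0.157). Efna5 was at 7.74 and 7.56 against 10.5 and 9.96, without overlap (0.37 ± 0.13, adjusted p = 0.0707), and its knockout effect differed between NPC and ESC (0.71, adjusted p = 0.0371). Efna1, Efna2 and Efna3 also did not pass (adjusted p = 0.424, 0.439 and 0.403). With 2 libraries a group, these intervals leave room for changes of up to the bounds given.

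No semaphorin was called higher in knockout NPC, and the falls are given here by class. Of 18 tested, none was higher and 9 were lower (50%) in knockout NPC, against 14.7% and 12.7% of all genes, and the class counts below have the same background. The sum went from 81.8 ± 0.328 in wild-type to 51.9 ± 0.241 in knockout NPC. Of the 6 tested class 3 genes, which encode secreted ligands, none was called, and their median change was 0.00. Sema3c, the highest of them, stood at 9.93 and 8.35 in wild-type and 7.91 and 7.25 in knockout NPC (-0.24 ± 0.13, 95% interval -0.54 to 0.07). Sema3f was at 4.74 and 5.29 against 4.75 and 5.10, and Sema3a at 4.05 and 3.56 against 3.90 and 3.87, with overlapping groups in both. Sema3b, Sema3d and Sema3e differed by -0.06 to 0.08. Among class 4 genes 4 of 6 were lower, by -0.39 to -0.50 (Sema4b, Sema4d, Sema4f and Sema4g), and these calls were lost whichever NPC library was left out, except that Sema4b kept its call without the second wild-type one. Sema4c, the highest semaphorin of NPC, was at 11.9 and 12.3 against 9.57 and 9.50 and did not pass (-0.31 ± 0.12, adjusted p = 0.106).

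Of the 6 tested membrane-bound genes of classes 5 to 7, 5 were lower, with a median change of -1.07. Among these, Sema5a and Sema7a passed the filter through wild-type NPC alone. Sema5b (chromosome 16, 35541448 to 35664344), a semaphorin with thrombospondin repeats, stood at 2.35 and 1.95 in wild-type and 1.39 and 1.44 in knockout ESC. It was at 7.80 and 8.13 in wild-type NPC and 0.138 and 0.222 in knockout NPC, on 7 and 11.9 fragments, which is 44.2-fold lower and below its level in ESC (-2.93 ± 0.12, adjusted p = 1.98e-05). Sema5a, its closest relative, was at 2.63 and 2.99 against 0.787 and 0.797 (-1.09 ± 0.11, adjusted p = 5.38e-04). Sema6c was at 8.10 and 9.53 against 2.55 and 2.37 (-1.50 ± 0.12, adjusted p = 1.70e-04), and Sema6d at 6.56 and 5.56 against 2.68 and 2.12 (adjusted p = 0.00148). Sema7a, which is anchored by a lipid, was at 1.02 and 1.36 against 0.112 and 0.105, on about 4 fragments in each knockout library. No library of 1 genotype reached the range of the other in any of these genes. The same held for all 10 higher and all 20 lower members called in NPC, so it does not set these genes apart. The share of such genes among all genes called was not counted, so it is not read as a trait of the members. Sema6a was the exception in direction, at 5.96 and 6.10 against 7.48 and 7.25, and did not pass (0.25 ± 0.11, adjusted p = 0.138). The untested Sema6b stood at 0.956 and 1.40 in wild-type and 0.0243 and 0.0684 in knockout NPC.

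The plexin sum was 84.3 ± 1.18 in wild-type and 74.9 ± 2.95 in knockout NPC, and of 8 tested plexins 2 were higher (25%) and 1 lower (12.5%), against 14.7% and 12.7% of all genes. With so few genes these shares are near the background. Plxna1, a partner of neuropilins for class 3 ligands and of class 6 ligands directly, stood at 24.3 and 23.9 against 13.8 and 15.1 (-0.70 ± 0.08, adjusted p = 9.34e-04). Plxnd1 (chromosome 6, 115904829 to 115945023), the endothelial receptor of Sema3e, was at 5.54 and 5.71 against 11.3 and 10.4 (0.84 ± 0.12, adjusted p = 0.00239), a call lost with a pseudocount of 0.1 (adjusted p = 0.0729). Plxnc1, the receptor of Sema7a, was at 1.59 and 1.23 against 3.92 and 3.01 (0.89 ± 0.14, adjusted p = 0.00399), while its ligand gene fell. Plxnb2, the highest plexin of NPC, was at 24.9 and 26.3 against 22.6 and 25.4 and did not pass (95% interval -0.33 to 0.15), nor did Plxna2, Plxna3, Plxna4 and Plxnb1 (-0.34 to 0.08). Nrp1 stood at 14.2 and 13.97 against 15.6 and 14.3 (0.08 ± 0.12, 95% interval -0.21 to 0.37), after a rise on differentiation of 3.74 ± 0.12 in wild type and 3.78 ± 0.12 in knockout. Nrp2 was at 7.41 and 7.22 against 4.96 and 5.66 (-0.40 ± 0.11, adjusted p = 0.0368), a call lost in each of the 4 fits without an NPC library. Nrp2 was 97.6% of the neuropilin sum in wild-type ESC, and Nrp1 was 65.8% of it in wild-type NPC.

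Whether a member differentiated differently in the 2 genotypes was tested directly as the difference between the 2 differentiation changes. It passed for 9 members in the positive and 13 in the negative direction, against 8.41% and 8.39% of all genes (16.8% called). The largest were Robo3 (-3.98 ± 0.30, adjusted p = 4.00e-04), Epha3 (-3.06 ± 0.22), Dcc (-2.95 ± 0.17) and Sema5b (-2.54 ± 0.17). Sema5b rose by 1.51 ± 0.12 in wild type and fell by 1.03 on the log2 scale in knockout, and was the only member called in opposite directions. Slit1, Sema6c, Epha10 and Plxna1 rose in wild type and were not called in knockout, with changes of 0.09, -0.03, -0.09 and 0.08 there. On the positive side, Unc5b had the largest difference (1.38 ± 0.18, adjusted p = 0.00356), not called in wild type (0.22 ± 0.13) and up by 1.60 ± 0.13 in knockout. Epha3, Unc5a and Ntn4 were listed at 0 in every ESC library. Their differentiation changes therefore depend on the added constant of 1, and their difference equals their knockout effect in NPC. Unc5c rose by 2.72 ± 0.11 and 3.69 ± 0.11, and Slit3 by 1.79 ± 0.14 and 2.75 ± 0.14. Leaving out any 1 library left 4 of the 9 and 10 of the 13 called. The calls lost were Efna5, Ephb3, Plxnc1, Plxnd1 and Slit3, and Plxna1, Sema7a and Unc5a, each without at least 1 ESC library and, apart from Unc5a, also without at least 1 NPC library. With a pseudocount of 0.1 the calls of Ephb3, Plxnd1, Slit3, Unc5c, Sema6d and Unc5a were lost. Efna5, Ephb3 and Sema7a lost theirs with no filter and with median-ratio scaling, and Efna5 and Ephb3 also with a replicate block.

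**Figure D4:**
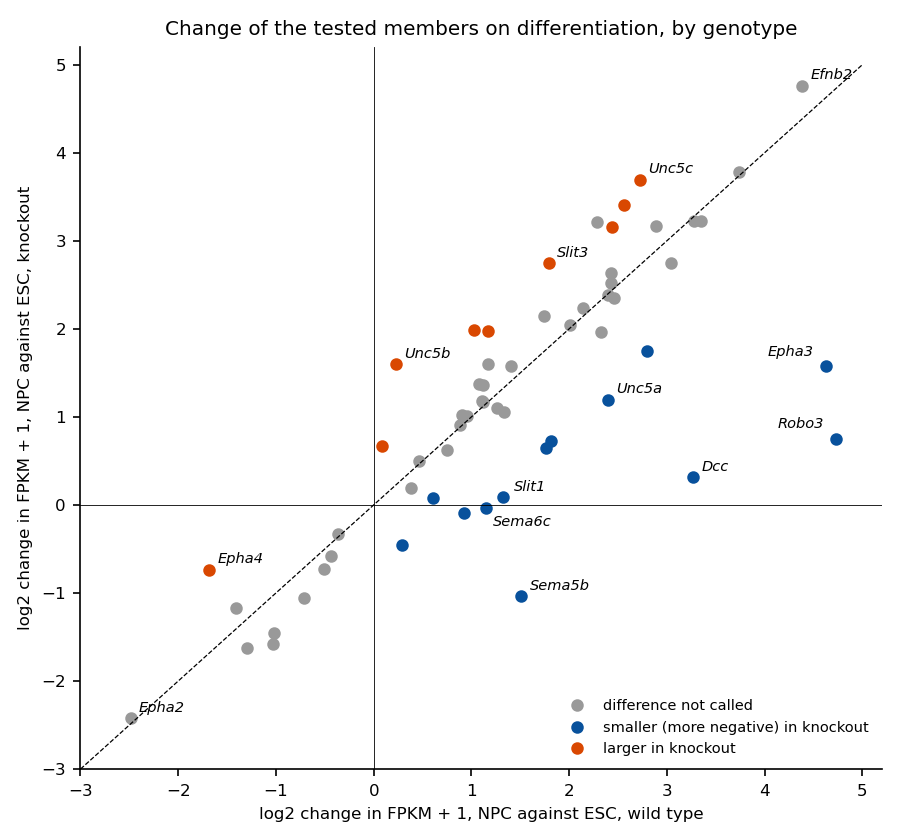
Change of log2(FPKM + 1) from ESC to NPC in wild type (x axis) and in knockout (y axis) for the 60 tested members, 2 libraries a group; the dashed line marks equal change, and colour marks the 22 members whose difference passed. Robo3, Epha3, Dcc and Sema5b lie far below the line, and Unc5b and Unc5c lie above it.

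The members were also set in lists by known use. Of 10 members of commissural axon guidance, 3 were higher (Robo2, Slit3 and Unc5c) and 5 lower (Dcc, Ntn1, Robo3, Slit1 and Unc5a) in knockout NPC, 30% and 50% against 14.7% and 12.7% of all genes, with a median of -0.54 against 0.05 for all genes. Of 7 tested members with known vascular roles, Plxnd1, Unc5b and Ephb4 were higher (42.9%) and Nrp2 lower (14.3%), with a median of 0.31. The summed level of the vascular members was 79.7 to 83.6 FPKM in wild-type and 109.2 to 112.5 in knockout NPC, and that of the commissural members was 77.6 to 77.7 and 44.9 to 50.4. The vascular sum includes Efnb2 (means 36.0 and 44.8), which did not pass. In the commissural sum the largest falls were in Robo3 (26.8 to 0.805) and Dcc (9.07 to 0.266), and the largest rises in Unc5c (5.64 to 11.9) and Slit3 (3.21 to 8.66). The lists were drawn up with earlier results of these data known, so their directions are a description. Of the lower commissural members, Dcc and Slit1 passed the filter through wild-type NPC alone.

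Signal transducers act below these receptors. Of 38 tested, 4 were higher (10.5%) and 13 lower (34.2%) in knockout NPC, against 14.7% and 12.7% of all genes, with a median of 0.00. The share of higher calls was thus below that of all genes, and the share of lower calls above it. The lower ones included 5 genes of the collapsin response mediator family, which relay semaphorin signals to the cytoskeleton. Crmp1 stood at 40.3 and 49.3 in wild-type and 1.84 and 2.51 in knockout NPC (-3.85 ± 0.17, adjusted p = 1.99e-05). Dpysl4 was at 23.1 and 24.4 against 0.283 and 1.29 (-3.85 ± 0.25, adjusted p = 8.59e-05). The Slit-Robo effector Srgap3 was at 34.0 and 31.8 against 5.33 and 5.81. The higher ones were Tiam1 (0.54 ± 0.11), Farp1 (0.50 ± 0.10), Dock1 and Rhoa, and the calls were lost without the first library of either NPC group for Farp1, and without the second wild-type or either knockout NPC library for Tiam1. Dock1 and Rhoa lost theirs whichever NPC library was left out. The kinases Abl1, Src and Ptk2 and the small GTPases Rac1 and Cdc42, which most cells use, were not called (changes of 0.04, 0.05, 0.00, 0.10 and 0.08).

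Co-receptors and other cues form the second list around the members. Of 29 tested, 15 were lower (51.7%) and 4 higher (13.8%) in knockout NPC, against 12.7% and 14.7% of all genes, with a median of -0.45. The share of higher calls was close to that of all genes. Cntn2, an adhesion molecule of commissural axons, stood at 13.2 and 14.1 against 0.357 and 0.719 (-3.26 ± 0.14, adjusted p = 2.11e-05). Ntng2, a membrane-anchored netrin G, was at 6.62 and 7.23 against 0.137 and 0.867 (-2.44 ± 0.22, adjusted p = 3.08e-04). The higher genes were Cxcl12, Met, Flrt3 and Kdr, the last of which is also in the endothelium list. Cxcl12, a chemokine of mesenchyme, was at 12.2 and 6.61 against 80.5 and 59.7 (2.81 ± 0.27, adjusted p = 4.08e-04), and its receptor Cxcr4 was lower (-1.96). Met, the receptor of hepatocyte growth factor, was at 3.45 and 3.08 against 10.8 and 11.5 (1.51 ± 0.12, adjusted p = 1.58e-04). Neo1, the Dcc relative that most tissues express, was not called (-0.09).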

How the data were processed

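The 8 tables hold 1 FPKM value per gene and library, deposited with a 95% confidence interval. Per the submitters' processing notes, the authors aligned reads with TopHat2 2.1.1 to mm9 and estimated FPKM with Cufflinks 2.2.1. The kit was directional, per the labels' protocols, and the annotation and strand setting are not given in the sources used here. Each table had 24854 entries and 24318 symbols. Entries of the 285 repeated symbols were summed, and 12 symbols with a failed estimate were left out. Locus starts are printed 1-based.

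Fragment numbers were derived as the square of 2 × FPKM / (upper bound − FPKM). For single-start genes below 5 fragments, 66.9% to 71.6% lay within 0.05 of a whole number, so these numbers are approximate and no count test was run.

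Genes with at least 1 FPKM in at least 2 libraries (13318) were fitted as log2(FPKM + 1) with limma 3.58.1 (R 4.3.3): 4 group means, variance trend, 4 residual degrees of freedom, two-sided tests, Benjamini-Hochberg adjusted p under 0.05 in each of 5 contrasts. The procedure was tested on simulated data. Alternatives were a pseudocount of 0.1, no filter, a minimum of 5 FPKM, median-ratio scaling, the highest entry per symbol, a replicate block, only the groups compared, and leaving out each library. A fit without a library was read only for contrasts whose groups included that library. A library left alone in its group was assumed to vary like the others. The text gives every netrin, Unc5, Dcc, Slit, Robo and neuropilin gene and, per contrast, up to 8 other members with the largest called rise or fall. It also gives up to 2 called genes per direction from each list of transducers and co-receptors. Families are given in full where they are compared, and genes named beyond this rule were chosen with their values known. The members, gene lists and marker lists were chosen with earlier results of these data known. Promoters came from RefSeq and were matched by symbol.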

Additional observations from a re-analysis of the deposited data

Results flagged for a closer look

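The effect of the knockout differed between NPC and ESC for 22 of the 60 tested members, by limma's test of the difference itself (adjusted p under 0.05), against 16.8% of all genes. In log2(FPKM + 1), the NPC effect was below the ESC effect by -3.98 for Robo3, -3.06 for Epha3, -2.95 for Dcc and -2.54 for Sema5b. The next were Slit1 (-1.24), Unc5a (-1.20), Sema6c (-1.18), Ntn4 (-1.11), Sema5a (-1.09), Sema6d (-1.04), Epha10 (-1.01), Sema7a (-0.75) and Plxna1 (-0.53). It was above the ESC effect by 1.38 for Unc5b, 0.97 for Unc5c, 0.97 for Plxnc1, 0.96 for Slit3, 0.95 for Epha4, 0.84 for Plxnd1, 0.81 for Ephb4, 0.71 for Efna5 and 0.59 for Ephb3. In each of these genes but Efna5 the difference in NPC had itself passed, and none passed in ESC. Epha3, Unc5a and Ntn4 were listed at 0 in every ESC library. Robo3, Dcc, Slit1, Unc5c, Sema6d, Sema5a and Epha10 had at most 0.122 FPKM in any ESC library. These levels left almost no room for a fall in ESC, so for these genes the difference largely repeats the NPC change (for Epha3, -3.06 in both). No group had the 4 libraries needed to look for an outlying sample.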

How the results depend on the processing

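No called direction of a member reversed under any alternative. With a minimum of 5 FPKM, which kept 38 members, 11 were lower in knockout than in wild-type NPC (20 at a minimum of 1), 4 and 5 fell on differentiation in wild type and knockout (8 and 11), and 7 differed negatively between genotypes (13). With a pseudocount of 0.1, 5 differed positively (9 with 1). Leaving out 1 library gave 8 to 10 higher and 14 to 15 lower members in knockout NPC, 44 to 46 and 7 to 8 in wild-type differentiation, 39 to 43 and 8 to 10 in knockout differentiation, 4 to 6 and 10 to 13 for the difference, and 0 to 0 in ESC. The other counts stayed within 1.5 times. Median-ratio scaling moved the median change of all genes by -0.10 in wild-type and -0.14 in knockout differentiation.

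Same-numbered libraries did not deviate together in every pair of groups (correlations -0.05 to 0.18), so the numbers were not taken to pair the libraries. With a replicate block, 11 members were higher (Epha1 was gained, adjusted p = 0.0484 by limma) and 16 lower in knockout NPC, 47 and 8 in wild-type differentiation, 42 and 10 in knockout differentiation, 7 and 13 for the difference, and 0 in ESC.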
